A study of Arabidopsis thaliana with 9 samples.

Results

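The comparison described here set Arabidopsis thaliana seedlings carrying the amp1-13 mutation against wild-type seedlings, both grown with the solvent DMSO. It used the 3 arrays labelled as amp1-13 controls and the 3 labelled as wild-type controls, which are 6 of the 9 arrays of the series, and 22746 probe sets. The amp1-13 seedlings are mutant for AMP1 in the Col-0 ecotype, and the wild-type seedlings are Col-0. All 6 samples were whole seedlings 10 days old, raised from seed in liquid culture in 96-well plates. The medium held 1% sucrose and 1% DMSO, the temperature was 26 °C, and days had 16 h light and 8 h dark. The remaining 3 arrays hold wild-type seedlings exposed to hyperphyllin, a small molecule, at 30 µM, and these entered the fit only to estimate the spread. The samples are described as biological replicates with no further detail, and the mutant is represented by 1 allele.

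AMP1 encodes a membrane protein of the endoplasmic reticulum related to glutamate carboxypeptidases. Loss of the gene is known for an enlarged shoot meristem, faster leaf initiation, extra leaves and raised cytokinin content, and the protein has been linked to translational repression by microRNAs. The question for these arrays is which transcripts differ when AMP1 is mutated. AMP1 itself was not analysed here, and no value below tests the mutation in the labelled arrays. RNA came from whole seedlings, so fewer cells of a type and less RNA per cell cannot be told apart in any value below.

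Over all probe sets, limma called 2289 higher and 2835 lower in amp1-13 at an adjusted p below 0.05, which is 10.1% and 12.5% of those tested. The lower calls were mostly small and the large changes were mostly rises. Among changes of under 1.5-fold, 702 probe sets were higher and 1428 lower, and between 1.5-fold and 2-fold there were 922 higher and 1089 lower. Between 2-fold and 4-fold the order was turned, with 598 higher and 299 lower, and at 4-fold or more there were 67 higher and 19 lower. The median log2 difference over all probe sets was -0.03.

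**Figure D1:**
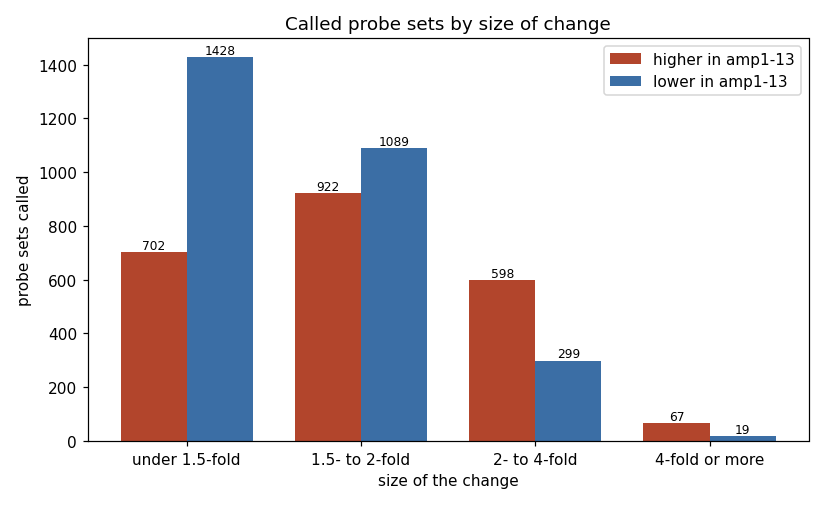
Number of probe sets called by limma, higher in amp1-13 and lower in amp1-13, in 4 classes of fold change against wild type. Falls outnumber rises in the classes below 2-fold, and rises outnumber falls above it, with 67 against 19 in the class of 4-fold or more.

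Array medians of the log2 signal lay between 6.443 and 6.516. Wild-type replicate 2 stood apart: its root mean square deviation from its group mean was 0.2444, while the other 8 arrays had values between 0.1196 and 0.1871. It was the wild-type array nearest to the amp1-13 values in 72.4% of the lower calls and in 53.6% of the higher calls. Without it limma called 3864 probe sets higher and 4078 lower. Other arrays also moved these counts by over 1.5 times. The higher count was 1492 without amp1-13 replicate 2 and 1295 without wild-type replicate 3. The lower count was 1424 without amp1-13 replicate 1, 1437 without amp1-13 replicate 2, 1592 without wild-type replicate 1 and 1250 without wild-type replicate 3.

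Of 13356 genes measured by a probe set naming 1 gene, 7.67% were called higher and 13.2% lower, and of the 1557 genes with a symbol 13.4% were called higher and 12.3% lower. Functions are described below only for genes with a symbol or a descriptive name in the annotation used. Most called genes named below were chosen on condition that their groups did not overlap, so that separation is no further support. Over all 22746 probe sets, all 3 mutant arrays lay above all 3 wild-type arrays in 3384 and below them in 4648. On nuclear chromosomes 1 to 5 the higher share was between 7.08% and 7.83% and the lower share between 12.7% and 14.5%. Of the 69 genes of the plastid genome 35 were higher, or 50.7%, and 0 were lower. The gene lists named in the next paragraphs were drawn up from gene names, with earlier results of these data known. Their counts stand beside the shares just given as a description, and no list was tested.

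**Figure D2:**
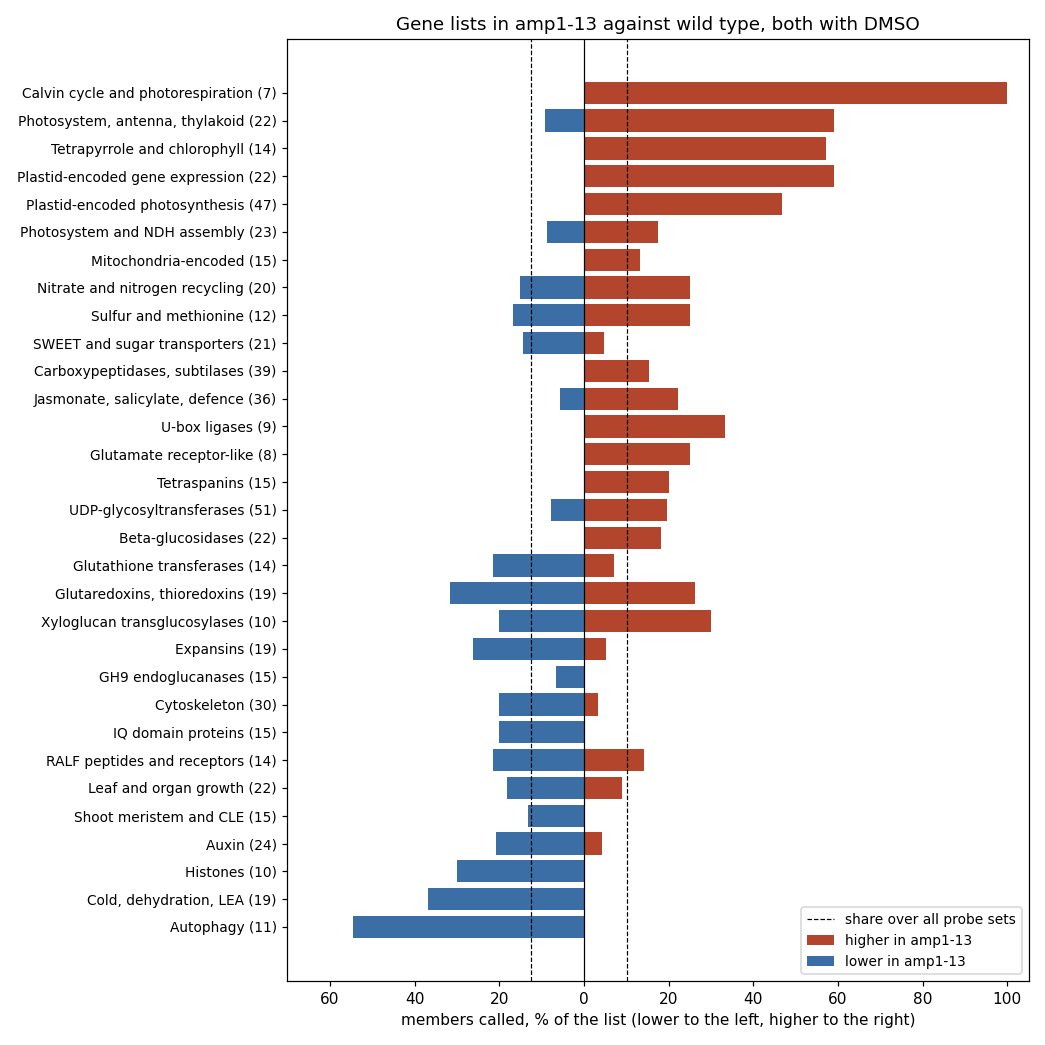
Share of the members of each gene list called higher in amp1-13 (bars to the right) or lower in amp1-13 (bars to the left) by limma, in percent, with the number of measured members in brackets. Dashed lines mark 10.1% higher and 12.5% lower over all probe sets. All 7 genes of the Calvin cycle, Rubisco activase and photorespiration list, which also holds chloroplast redox genes, were called higher. Of 11 autophagy genes 6 were called lower.

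The functions that rose most evenly in amp1-13 were those of the chloroplast. Chloroplasts fix carbon in the Calvin cycle with energy from the thylakoid photosystems, whose subunits are encoded partly in the nucleus and partly in the plastid genome. All 7 measured genes of the Calvin cycle, Rubisco activase and photorespiration list were higher in amp1-13, with a median log2 difference of 0.90, and all 7 were called without any one of the 6 arrays. HPR (AT1G68010) encodes the hydroxypyruvate reductase of photorespiration. Its log2 signals were 11.44, 11.5 and 11.17 in amp1-13, against 10.56, 10.23 and 10.19 in wild type. The lowest mutant array thus lay above the highest wild-type array, and the rise was 2.06-fold (log2 difference 1.04 ± 0.16 SE, limma adjusted p = 0.00247). Chloroplast redox genes were also among the 7. TRXF2 (AT5G16400), the thioredoxin f2 that activates Calvin cycle enzymes, had 9.18, 9.3 and 9.39 in amp1-13, against 8.53, 8.4 and 8.35 in wild type, a rise of 1.82-fold (adjusted p = 0.00241). NTRC (AT2G41680), the NADPH-dependent thioredoxin reductase of the chloroplast, had 8.58, 8.67 and 8.58 in amp1-13, against 7.83, 8.09 and 7.43 in wild type, a rise of 1.77-fold (adjusted p = 0.00559). AT5G58330, annotated as the NADP-dependent malate dehydrogenase that exports reducing power from chloroplasts, rose 1.62-fold (adjusted p = 0.00267). SBPASE (AT3G55800), sedoheptulose bisphosphatase, had 10.85, 10.85 and 10.67 in amp1-13, against 9.68, 9.72 and 9.39 in wild type.

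Of 22 nuclear genes for photosystems, antennae and thylakoid structure 13 were higher and 2 lower, with a median log2 difference of 0.46. NdhL (AT1G70760), a subunit of the NDH complex of cyclic electron flow, had log2 signals of 8.76, 8.55 and 8.63 in amp1-13, against 7.97, 7.24 and 7.46 in wild type, a rise of 2.13-fold (adjusted p = 0.00469). CaS (AT5G23060), the thylakoid calcium-sensing protein, had 10.47, 10.28 and 10.4 in amp1-13, against 9.45, 9.14 and 9.31 in wild type, and rose 2.12-fold (adjusted p = 0.00142). The groups did not overlap in either gene, and in CaS the gap between them was wider than the range inside each. TROL (AT4G01050), the rhodanese-like protein that anchors ferredoxin-NADP reductase to thylakoids, rose 1.85-fold (log2 difference 0.89 ± 0.14 SE, adjusted p = 0.00277). The genes lower in amp1-13 were ATPC2 (adjusted p = 0.033), a second gene for the gamma subunit of the plastid ATP synthase, and AT4G38100 (adjusted p = 0.0369), annotated as CURVATURE THYLAKOID 1D. Both of these lost their calls without amp1-13 replicate 1, amp1-13 replicate 2, wild-type replicate 1 or wild-type replicate 3, with adjusted p values up to 0.116 for ATPC2 and 0.132 for AT4G38100. Without amp1-13 replicate 3, AT4G38100 had an adjusted p of 0.0712. The count of higher genes was between 11 and 14 when 1 array was left out.

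Factors that assemble or repair these complexes gave a smaller share. Of 23 such genes 4 were higher and 2 lower, with a median log2 difference of 0.08. PSB27 (AT1G03600), which acts in photosystem II assembly and repair, had 10.84, 10.79 and 10.78 in amp1-13, against 10.11, 9.65 and 9.77 in wild type, a rise of 1.95-fold (adjusted p = 0.00149). CRR21 (AT5G55740), an RNA editing factor for an NDH transcript, rose 1.53-fold (adjusted p = 0.00496). The higher count of this list was 2 without amp1-13 replicate 2, amp1-13 replicate 3 or wild-type replicate 3, and the lower count was 0 without amp1-13 replicate 1, amp1-13 replicate 2 or wild-type replicate 3 and 1 without each of the others.

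Tetrapyrrole synthesis, which supplies chlorophyll and haem, had 8 of 14 genes higher and 0 lower, with a median log2 difference of 0.57 and between 7 and 9 genes higher when 1 array was left out. The genes called stand at several steps of the pathway. HEME1 (AT3G14930), a uroporphyrinogen decarboxylase gene, had 7.82, 7.84 and 7.87 in amp1-13, against 7.02, 7.31 and 6.99 in wild type, a rise of 1.67-fold (adjusted p = 0.0017). CHLI2 (AT5G45930), a subunit of the magnesium chelatase that commits the pathway to chlorophyll, had 7.74, 7.81 and 7.82 in amp1-13, against 7.26, 7.0 and 7.0 in wild type, a rise of 1.63-fold (adjusted p = 0.00159). PORB (AT4G27440), a light-dependent protochlorophyllide oxidoreductase, rose 1.65-fold (adjusted p = 0.00708). HEMA2 (AT1G09940), a glutamyl-tRNA reductase gene of the first committed step, rose 1.90-fold (adjusted p = 0.0198), a call that was lost when wild-type replicate 3 was left out (adjusted p = 0.0691).

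Plastid-encoded transcripts called higher came from both the photosynthetic complexes and the machinery that expresses them. Of 47 plastid photosynthesis genes 22 were higher and 0 lower, with a median log2 difference of 0.53, and of 22 genes for plastid gene expression 13 were higher and 0 lower, with a median of 0.72. The photosynthesis count was 13 without amp1-13 replicate 2 or wild-type replicate 3, and the gene expression count was between 9 and 15 when 1 array was left out. The ycf3 gene, for a photosystem I assembly factor, had log2 signals of 9.02, 9.35 and 9.16 in amp1-13, against 7.27, 8.24 and 7.65 in wild type, a rise of 2.75-fold (adjusted p = 0.00382). Transcripts of rpl36, a ribosomal protein gene, stood at 10.16, 10.49 and 10.25 in amp1-13, against 8.12, 9.6 and 8.67 in wild type, a rise of 2.83-fold (adjusted p = 0.00874). In both genes wild-type replicate 2 was the highest of the 3 wild-type arrays, and the choice of genes required it to lie below every mutant array. For rpoC1, a subunit of the plastid RNA polymerase, the values were 8.39, 8.86 and 9.05 in amp1-13, against 7.62, 7.25 and 7.73 in wild type, a rise of 2.36-fold (adjusted p = 0.00248). Here wild-type replicate 2 was the lowest of its group.

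**Figure D3:**
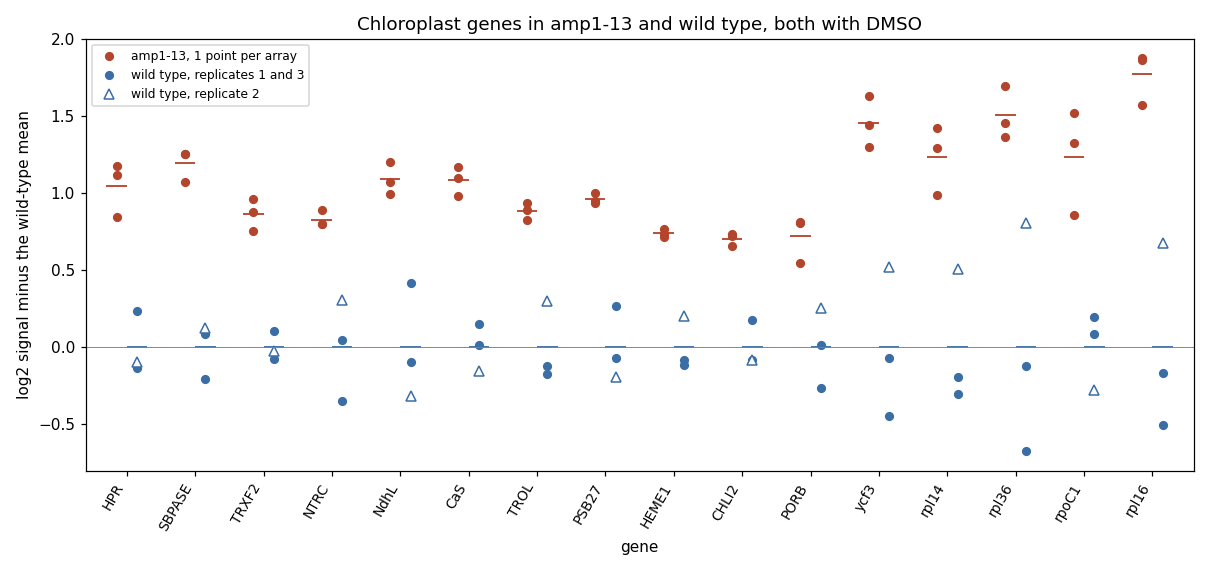
Log2 signal of 16 chloroplast genes on each array, minus the mean of the 3 wild-type arrays, for amp1-13 (red) and wild type (blue, with replicate 2 as an open triangle). Horizontal marks are group means. For each gene drawn all 3 mutant arrays lie above all 3 wild-type arrays, a separation that the choice of genes mostly required. The rpl36 gene is 2.83-fold and CHLI2 1.63-fold higher in amp1-13.

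Genes for moving and using carbon changed singly, not as whole pathways. Of 6 genes for lipid mobilisation, the glyoxylate cycle and gluconeogenesis 1 was higher and 1 lower. The starch list had 2 of 8 genes higher and 1 lower. Of 20 genes for citrate, isocitrate, succinate and glycolytic enzymes 2 were higher and 3 lower. Without any one array other than wild-type replicate 2, the higher count was 0 on the lipid list and 1 on the starch list. On the citrate list it was 0 without amp1-13 replicate 1 or 2 or wild-type replicate 1 or 3. The citrate list had 1 gene lower without any one array other than wild-type replicate 2. Without that array the higher counts were 3, 2 and 4 for the lipid, starch and citrate lists. ICL (AT3G21720) encodes isocitrate lyase, the glyoxylate cycle enzyme that turns stored lipid into sugar precursors in seedlings. It had log2 signals of 8.51, 8.71 and 8.52 in amp1-13, against 10.38, 9.95 and 9.94 in wild type, and was 2.85-fold lower (log2 difference -1.51 ± 0.14 SE, adjusted p = 0.000352). The groups were over 1 log2 unit apart at their nearest arrays. AMY1 (AT4G25000), an alpha-amylase gene, had 5.87, 6.18 and 6.58 in amp1-13, against 5.05, 4.89 and 4.5 in wild type, and rose 2.63-fold (adjusted p = 0.00153). Of 21 sugar transporter genes 1 was higher and 3 were lower, shares near those over all probe sets for falls. SFP1 (AT5G27350), a monosaccharide transporter of the sugar porter family, rose 1.88-fold (adjusted p = 0.00139), while SWEET14 (AT4G25010), a sugar efflux carrier gene, was 1.45-fold lower (adjusted p = 0.00813). The higher count of the transporter list was 2 without amp1-13 replicate 1 or wild-type replicate 2.

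Of 13 genes for SnRK1 beta subunits and amino acid breakdown 2 were higher, 3 lower and 8 not called, and 1 was higher without amp1-13 replicate 2. AT4G33150, annotated as the LKR/SDH enzyme that begins lysine breakdown, rose 1.76-fold (adjusted p = 0.00244). ETFALPHA (AT1G50940) and ETFBETA (AT5G43430), the subunits of the mitochondrial electron transfer flavoprotein that accepts electrons from this breakdown, were 1.51-fold lower (adjusted p = 0.00906) and 1.45-fold lower (adjusted p = 0.00586). ETFALPHA had 7.68, 7.82 and 8.01 in amp1-13, against 8.39, 8.47 and 8.45 in wild type.

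Genes for nitrate transport and nitrogen recycling went both ways, and most did not pass the test. Of 20 measured 5 were higher, 3 lower and 12 not called, with a median log2 difference of 0.03, and 5 or 6 were higher when 1 array was left out. Of the 11 members of the nitrate and peptide transporter family among them 4 were higher and 0 lower. AT1G59740, annotated as NPF4.3, had log2 signals of 6.78, 6.47 and 6.47 in amp1-13, against 4.94, 5.51 and 5.17 in wild type, a rise of 2.58-fold (adjusted p = 0.000817). AT3G21670, annotated as NPF6.4, rose 2.56-fold (adjusted p = 0.00435). GTR1 (AT3G47960), a glucosinolate transporter of the same family, had 9.34, 8.93 and 8.72 in amp1-13, against 7.93, 7.73 and 7.7 in wild type, a rise of 2.32-fold (adjusted p = 0.00144). In these 3 genes no wild-type array reached the lowest mutant array. NRT2.5 (AT1G12940), a high-affinity nitrate transporter of a different family known for its rise under nitrogen starvation, had 4.41, 4.79 and 4.55 in amp1-13, against 5.78, 5.39 and 5.42 in wild type, and was 1.93-fold lower (adjusted p = 0.00326). ASPGA1 (AT5G08100), an asparaginase gene that frees ammonium from stored asparagine, was 1.66-fold lower (adjusted p = 0.00303). GAT1_2.1 is read by 2 probe sets that disagree: the brighter one had a log2 difference of 2.90, and the other, at signals of 3.02 to 3.41 in all 6 arrays, had a difference of -0.06 (adjusted p = 0.778).

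Genes for sulfate activation rose together with a glucosidase gene of sulfur starvation. Of 12 genes for sulfur assimilation and methionine metabolism 3 were higher and 2 lower. APS3 (AT4G14680) and APS4 (AT5G43780) encode ATP sulfurylases, which catalyse the first step of sulfate assimilation. APS3 had 9.53, 9.46 and 9.57 in amp1-13, against 8.56, 8.65 and 8.82 in wild type, a rise of 1.80-fold (adjusted p = 0.00129). APS4 had 8.76, 8.48 and 8.75 in amp1-13, against 7.73, 7.64 and 7.67 in wild type, a rise of 1.98-fold (adjusted p = 0.00119). BGLU28 (AT2G44460), a beta-glucosidase gene known as a marker of sulfur deficiency, had 11.12, 11.09 and 11.39 in amp1-13, against 10.12, 9.76 and 10.08 in wild type, a rise of 2.32-fold (adjusted p = 0.000862). The higher count was 3 or 4 when 1 array was left out, and the lower count was 1 without amp1-13 replicate 2 and 0 without wild-type replicate 3.

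Cell wall genes moved in both directions, with opposite signs inside the same families. Expansins loosen the wall during cell growth. Of 19 expansin genes 1 was higher and 5 lower, and 4 or 5 were lower when 1 array was left out. EXPA8 (AT2G40610) had log2 signals of 7.88, 7.96 and 7.86 in amp1-13, against 8.94, 9.45 and 9.31 in wild type, and was 2.52-fold lower (log2 difference -1.33 ± 0.19 SE, adjusted p = 0.0022). EXPA16 (AT3G55500) had 5.0, 5.49 and 5.86 in amp1-13, against 6.73, 7.51 and 6.56 in wild type, and was 2.80-fold lower (adjusted p = 0.0099). EXPA4 (AT2G39700) and EXPA20 (AT4G38210) had log2 differences of -0.77 and -0.58 and both fell (adjusted p = 0.00479 for EXPA4 and 0.00261 for EXPA20). The member that rose, EXLA1 (AT3G45970), belongs to the expansin-like A group. It had 10.51, 9.49 and 9.63 in amp1-13, against 8.35, 7.96 and 8.31 in wild type, a rise of 3.17-fold (adjusted p = 0.00479). The other 13 expansin genes were not called, among them EXLA2 at a log2 difference of 0.49 and EXLA3 at 1.15, both named after their values were seen. The median over the 19 was -0.01.

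Enzymes that cut and rejoin xyloglucan, the main hemicellulose of the growing wall, were called in 5 of 10 cases, 3 higher and 2 lower. EXGT-A3 (AT2G01850) had 11.49, 11.4 and 11.44 in amp1-13, against 10.56, 10.22 and 10.38 in wild type, a rise of 2.08-fold (adjusted p = 0.000442). XTH16 (AT3G23730) rose 1.74-fold (adjusted p = 0.00217) and XTH20 (AT5G48070) was 1.68-fold lower (adjusted p = 0.00647). The lower count was 1 without amp1-13 replicate 2, amp1-13 replicate 3, wild-type replicate 1 or wild-type replicate 3. The higher count was 2 without amp1-13 replicate 1 or without any one of the wild-type arrays. Of 15 endoglucanase genes of family GH9 the 1 called was GH9B8 (AT2G32990), with 7.17, 6.7 and 6.78 in amp1-13, against 7.97, 8.32 and 8.14 in wild type, a level 2.40-fold lower (adjusted p = 0.00117). Of 5 pectin methylesterase genes, whose products alter pectin in the wall, 2 were higher and 2 lower. ATPMEPCRB (AT4G02330) rose 3.35-fold (adjusted p = 0.00394), and PMEPCRF (AT5G53370) rose 1.56-fold (adjusted p = 0.0125), a call lost when wild-type replicate 3 was left out (adjusted p = 0.0554). PME61 (AT3G59010) had 5.14, 5.04 and 5.3 in amp1-13, against 7.02, 6.92 and 6.8 in wild type, and was 3.37-fold lower (adjusted p = 0.000309). The separation of the groups in PME61 was many times the range inside each. GAUT15 (AT3G58790), of the pectin galacturonosyltransferase family, rose 2.05-fold (adjusted p = 0.00267). AT5G64120, annotated as peroxidase PRX71, a wall peroxidase, had 9.89, 10.09 and 9.91 in amp1-13, against 8.52, 8.2 and 8.34 in wild type, and rose 3.05-fold (adjusted p = 0.000459). It was the 1 called gene of 7 on the class III peroxidase and laccase list, which holds only genes matched by name. The gene with the preceding locus number, AT5G64110, is not on that list and rose 3.66-fold (adjusted p = 0.000309).

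Wall-sensing receptors and RALF peptides had calls in both directions, with 14.3% of the list higher and 21.4% lower. RALF peptides are secreted signals, and FERONIA and THESEUS1 are receptor kinases of the family that perceives them and senses wall integrity. Of 14 such genes 2, both for receptors, were higher, 3, all for peptides, were lower and 9 were not called. THE1 (AT5G54380) had log2 signals of 8.3, 8.02 and 7.87 in amp1-13, against 6.92, 7.6 and 7.0 in wild type, a rise of 1.85-fold (adjusted p = 0.00956). FER (AT3G51550) rose 1.65-fold with adjusted p = 0.0323, and this call was lost without any one array other than wild-type replicate 2, with adjusted p between 0.0504 and 0.116. RALFL27 (AT3G29780) had 6.28, 6.18 and 6.14 in amp1-13, against 7.87, 7.2 and 8.13 in wild type, and was 2.89-fold lower (adjusted p = 0.00149). The other called peptide genes were RALFL24 (adjusted p = 0.0197) and RALFL31 (adjusted p = 0.0178), at levels 1.78-fold and 1.76-fold lower. Both lost their calls without amp1-13 replicate 1, amp1-13 replicate 2, wild-type replicate 1 or wild-type replicate 3, with adjusted p up to 0.0801, and RALFL24 also without amp1-13 replicate 3 (adjusted p = 0.0594). Without wild-type replicate 2 the list had 2 genes higher and 5 lower.

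Cytoskeleton genes were mostly lower where they were called. Of 30 genes for tubulin, actin and microtubule-associated proteins 1 was higher and 6 lower, and between 5 and 7 were lower when 1 array was left out. The higher count was 0 without amp1-13 replicate 2, amp1-13 replicate 3, wild-type replicate 1 or wild-type replicate 3, and 5 without wild-type replicate 2. TUB1 (AT1G75780), a beta-tubulin gene, had 8.7, 8.51 and 8.54 in amp1-13, against 9.04, 9.63 and 9.4 in wild type, and was 1.71-fold lower (adjusted p = 0.007). SP1L2 (AT1G69230), of the SPIRAL1 family that keeps cortical microtubules and cell expansion directed, had 5.15, 5.16 and 5.04 in amp1-13, against 6.14, 5.76 and 5.96 in wild type, and was 1.79-fold lower (adjusted p = 0.00244). TRM18 (AT2G39435), of a family that recruits the TON1 complex to microtubules, was 1.78-fold lower (adjusted p = 0.00415). Of 15 IQ domain genes, a calmodulin-binding family associated with microtubules, 0 were higher and 3 lower, among them iqd21 (AT3G49260), which was 1.56-fold lower (adjusted p = 0.00742). The IQ domain count was 1 without wild-type replicate 3.

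**Figure D4:**
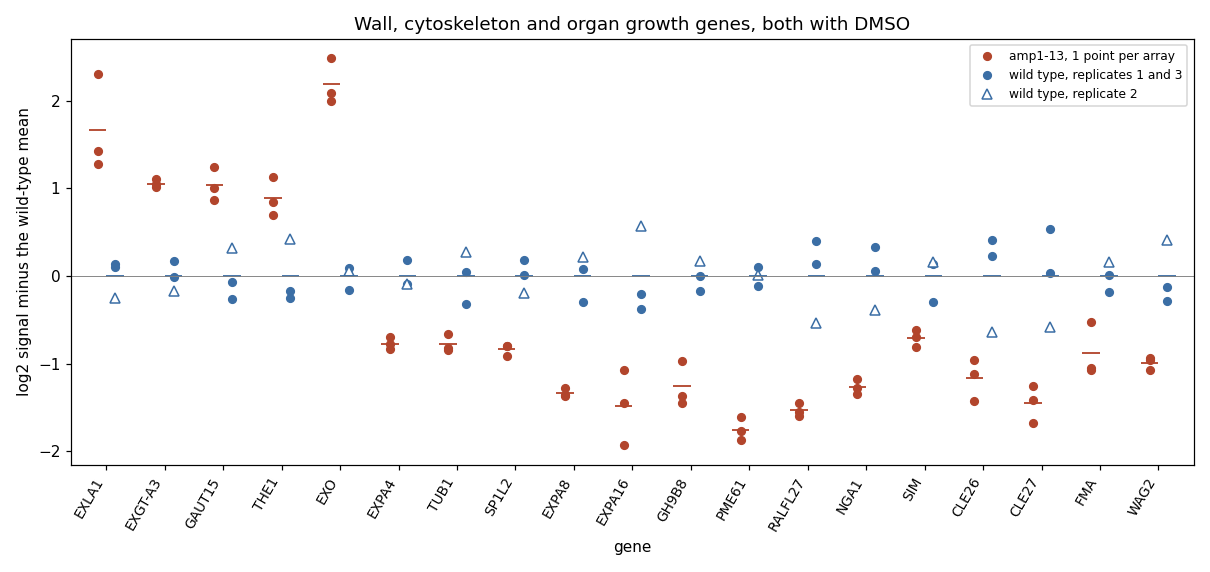
Log2 signal of 19 wall, cytoskeleton and organ growth genes on each array, minus the mean of the 3 wild-type arrays, for amp1-13 (red) and wild type (blue, with replicate 2 as an open triangle). Horizontal marks are group means. EXO stands highest, at 4.57-fold above wild type, and PME61 and RALFL27 stand lowest, at 3.37-fold and 2.89-fold below it.

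Regulators of leaf and organ growth had calls in both directions, and the larger changes among them were falls. Of 22 such genes 2 were higher and 4 lower, and between 3 and 5 were lower when 1 array was left out. The genes that rose were ARL (log2 difference 0.60, adjusted p = 0.0247) and NGA3 (log2 difference 0.36, adjusted p = 0.0336), of which NGA3 was named after its values were seen. The higher count was 1 without amp1-13 replicate 1, 2 or 3 or wild-type replicate 1, and 0 without wild-type replicate 3. NGA1 (AT2G46870), a NGATHA transcription factor gene that restrains growth at leaf margins, had log2 signals of 6.03, 5.96 and 6.13 in amp1-13, against 7.64, 6.92 and 7.36 in wild type, and was 2.41-fold lower (log2 difference -1.27 ± 0.16 SE, adjusted p = 0.00138). SIM (AT5G04470), the SIAMESE inhibitor of cyclin-dependent kinases that promotes endoreduplication in trichomes, had 7.95, 8.07 and 8.15 in amp1-13, against 8.46, 8.92 and 8.9 in wild type, and was 1.63-fold lower (adjusted p = 0.0093). PTL (AT5G03680), the PETAL LOSS factor, was 1.37-fold lower (adjusted p = 0.0116). Of 15 genes for shoot meristem, organ polarity and CLE peptides 0 were higher and 2 lower. Both are genes for CLE signalling peptides. CLE27 (AT3G25905) had 4.95, 5.22 and 5.37 in amp1-13, against 6.67, 6.05 and 7.17 in wild type, and was 2.73-fold lower (adjusted p = 0.0042). CLE26 (AT1G69970) had 4.35, 4.82 and 4.66 in amp1-13, against 6.0, 5.14 and 6.18 in wild type, and was 2.23-fold lower (adjusted p = 0.0116). Wild-type replicate 2 was the nearest to the mutant in both peptide genes. Without it 3 genes of that list were higher and 3 lower.

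Markers of single cell types were thinly covered, since 7 of the 46 marker loci chosen had a probe set naming 1 gene. FMA (AT3G24140), the FAMA regulator of the last step of guard cell formation, was the 1 marker called. It had 6.38, 6.35 and 6.9 in amp1-13, against 7.44, 7.59 and 7.25 in wild type, and was 1.85-fold lower (adjusted p = 0.00831). The regulators of earlier steps of the stomatal lineage were not called. For SPCH (AT5G53210) the log2 difference was -0.04 with adjusted p = 0.87, and for MUTE (AT3G06120) it was 0.33 with adjusted p = 0.0753. MUTE was called higher under 3 alternatives, with adjusted p = 0.0289 without wild-type replicate 1, 0.00671 with array weights and 0.0432 with repeated quantile normalization. Of the root hair expansins, EXPA7 (AT1G12560) differed by 0.44 on the log2 scale (adjusted p = 0.18) and EXPA18 (AT1G62980) by -0.01 (adjusted p = 0.987). TRY (AT5G53200), a repressor of trichome fate, differed by 0.17 (adjusted p = 0.222) and the stem cell marker CLV3 by 0.60 (adjusted p = 0.094). MUTE, TRY and CLV3 were dim in both groups, with group means under 4.39, which is the value at the 25th percentile over all probe sets. LPR2 (AT1G71040), a multicopper oxidase gene that acts in the root response to low phosphate, had 8.76, 9.07 and 8.88 in amp1-13, against 7.21, 7.52 and 7.22 in wild type, and rose 3.01-fold (adjusted p = 0.000793). It was the 1 gene called of 8 on the root list.

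Hormone-related genes included a large rise in a brassinosteroid-responsive gene, the 1 gene called higher on its list. Of 12 genes for gibberellin and brassinosteroid signalling 1 was higher, 2 lower and 9 not called, with a median log2 difference of 0.07. The lower count was 0 without amp1-13 replicate 1, amp1-13 replicate 2 or wild-type replicate 1, and the higher count was 4 without wild-type replicate 2. EXO (AT4G08950), the EXORDIUM gene that promotes leaf growth, had log2 signals of 11.18, 10.69 and 10.78 in amp1-13, against 8.79, 8.75 and 8.54 in wild type, a rise of 4.57-fold (log2 difference 2.19 ± 0.18 SE, adjusted p = 0.000309). Of 24 genes for auxin response, synthesis and conjugation 1 was higher and 5 lower. The gene that rose was UGT74D1 (AT2G31750), a glucosyltransferase that conjugates auxins, with 8.5, 8.61 and 8.49 in amp1-13, against 7.29, 7.13 and 7.22 in wild type, a rise of 2.51-fold (adjusted p = 0.000309). WAG2 (AT3G14370), a kinase that sets the polarity of auxin efflux carriers, had 6.73, 6.75 and 6.62 in amp1-13, against 7.4, 8.1 and 7.56 in wild type, and was 1.99-fold lower (adjusted p = 0.00397). The lower count of the auxin list was 2 without amp1-13 replicate 2, 5 without wild-type replicate 2 and 1 without each of the other 4 arrays.

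Defence signalling genes were called higher more than lower. Of 36 genes for jasmonate, salicylate and defence 8 were higher and 2 lower, with a median log2 difference of 0.11. BIK1 (AT2G39660), the receptor-associated kinase of pattern-triggered immunity, had log2 signals of 10.03, 9.82 and 9.96 in amp1-13, against 8.87, 8.72 and 8.68 in wild type, a rise of 2.26-fold (adjusted p = 0.000337). OPCL1 (AT1G20510), a ligase of jasmonate synthesis, rose 1.89-fold (adjusted p = 0.0112). THI2.2 (AT5G36910), a thionin gene, had 5.52, 5.93 and 5.66 in amp1-13, against 7.17, 6.97 and 7.06 in wild type, and was 2.57-fold lower (adjusted p = 0.000592). JMT (AT1G19640), the methyltransferase that makes methyl jasmonate, was 1.60-fold lower (adjusted p = 0.00288), and its mutant signals were dim, under the 25th percentile of mean signal. The higher count was 5 without amp1-13 replicate 2 or 3, and the lower count was 5 without wild-type replicate 2. PUB24 (AT3G11840), a U-box ubiquitin ligase gene of the triplet that dampens immune signalling, rose 2.02-fold (adjusted p = 0.0103). RING1 (AT5G10380), a RING ubiquitin ligase gene linked to cell death, had 8.06, 8.1 and 8.21 in amp1-13, against 6.88, 6.07 and 5.88 in wild type, a rise of 3.60-fold (adjusted p = 0.000806).

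Tetraspanins, glutamate receptor-like channels and secreted proteases each had a few genes called higher, with most members not called. Of 15 tetraspanin genes 3 were higher and 0 lower, with a median log2 difference of -0.08, and 1 was lower without wild-type replicate 2. The higher count of the tetraspanins was 2 without any one array other than wild-type replicate 2. TET8 (AT2G23810), a tetraspanin found on secreted vesicles, had 12.16, 11.66 and 11.87 in amp1-13, against 10.96, 10.52 and 10.86 in wild type, a rise of 2.17-fold (adjusted p = 0.00488). Of 8 glutamate receptor-like channel genes 2 were higher and 0 lower, with the same counts without any one array. GLR3.3 (AT1G42540), a calcium channel of long-distance wound signalling, rose 1.85-fold (adjusted p = 0.0112), and GLR2.7 (AT2G29120) rose 1.74-fold (adjusted p = 0.00205). Of 39 serine carboxypeptidase and subtilase genes, which encode secreted or vacuolar proteases, 6 were higher and 0 lower, with a median log2 difference of 0.02. Between 4 and 7 were higher when 1 array was left out, and 1 was lower without wild-type replicate 3. SBT4.12 (AT5G59090) had 9.53, 8.88 and 8.49 in amp1-13, against 6.93, 7.56 and 6.99 in wild type, a rise of 3.50-fold (adjusted p = 0.00216), and scpl46 (AT2G33530) rose 1.77-fold (adjusted p = 0.000442). A protease gene outside those families went the other way. CP1 (AT4G36880), a cysteine protease gene, had 6.76, 6.78 and 7.01 in amp1-13, against 8.46, 7.8 and 8.33 in wild type, and was 2.54-fold lower (adjusted p = 0.00126).

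Cold, dehydration and late embryogenesis abundant (LEA) genes were lower where they were called. These genes protect cells from water loss and many respond to abscisic acid. Of 19 measured 0 were higher and 7 lower, with a median log2 difference of -0.21, and between 6 and 9 were lower when 1 array was left out. COR15B (AT2G42530), which encodes a protein that protects chloroplast membranes from freezing, had log2 signals of 5.49, 5.78 and 5.89 in amp1-13, against 8.26, 7.07 and 7.28 in wild type, and was 3.51-fold lower (adjusted p = 0.00267). DI21 (AT4G15910), a drought-induced gene, had 9.71, 9.82 and 9.42 in amp1-13, against 11.2, 10.47 and 11.3 in wild type, and was 2.53-fold lower (adjusted p = 0.0032). HIS1-3 (AT2G18050), the drought-inducible linker histone, had 5.42, 5.87 and 5.55 in amp1-13, against 7.78, 6.89 and 7.95 in wild type, and was 3.80-fold lower (adjusted p = 0.00121). Wild-type replicate 2 was the lowest of its group in these 3 genes, and the choice of genes required it to lie above every mutant array. AT2G46140, annotated as LEA27, was 2.00-fold lower (adjusted p = 0.00764). EEL (AT2G41070), a bZIP factor of seed maturation also held in this list, was 1.65-fold lower (adjusted p = 0.011).

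Autophagy genes, which serve the recycling of cytoplasm in the vacuole, had 6 of 11 members lower and 0 higher, with a median log2 difference of -0.40. The calls were all among genes for ATG8, the ubiquitin-like protein that coats the autophagosome. ATG8 genes make up the whole list except for ATG3 and AT5G66930, so other parts of autophagy were hardly measured. APG8A (AT4G21980) had 9.05, 9.2 and 9.39 in amp1-13, against 9.91, 9.65 and 10.0 in wild type, and was 1.56-fold lower (adjusted p = 0.00658). The lower count was 3 without amp1-13 replicate 1, amp1-13 replicate 2, wild-type replicate 1 or wild-type replicate 3, and 8 without wild-type replicate 2.

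**Figure D5:**
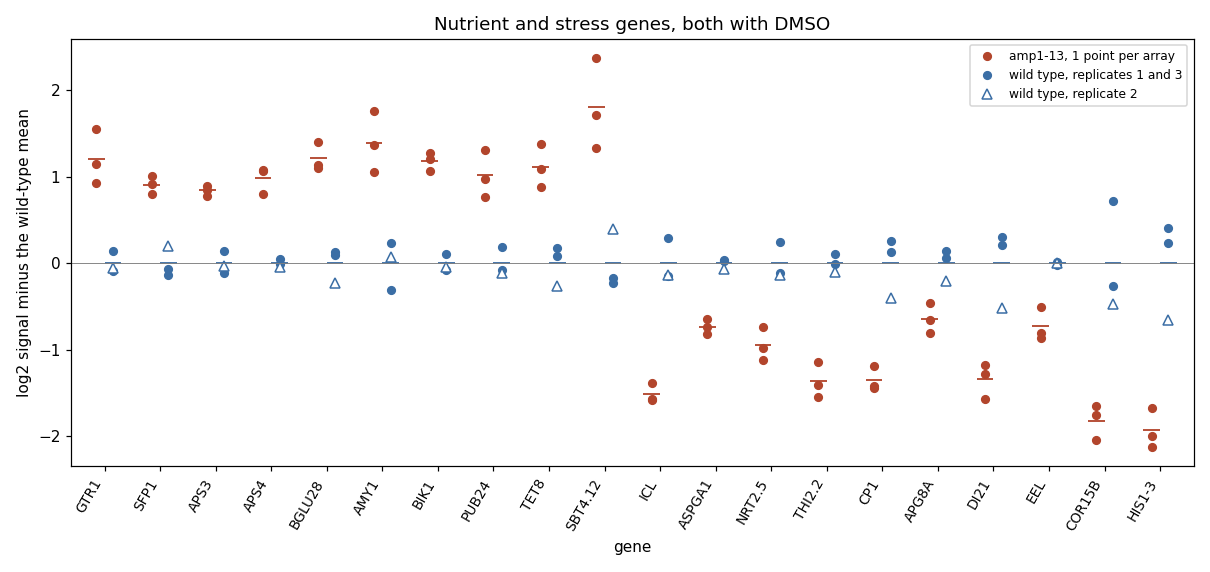
Log2 signal of 20 nutrient and stress genes on each array, minus the mean of the 3 wild-type arrays, for amp1-13 (red) and wild type (blue, with replicate 2 as an open triangle). Horizontal marks are group means. SBT4.12 is 3.50-fold above wild type, and HIS1-3 and COR15B are 3.80-fold and 3.51-fold below it.

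Redox and conjugation enzymes split within families. Of 19 glutaredoxin, thioredoxin and methionine sulfoxide reductase genes 5, among them TRXF2 and NTRC of the Calvin cycle list, were higher and 6 lower. The chloroplast thioredoxins y showed this within a pair: ty2 (AT1G43560) had log2 signals of 9.45, 9.48 and 9.77 in amp1-13, against 8.7, 8.82 and 8.53 in wild type, a rise of 1.84-fold (adjusted p = 0.00165). TY1 (AT1G76760) had 7.2, 7.17 and 7.3 in amp1-13, against 8.21, 7.59 and 8.36 in wild type, and was 1.78-fold lower (adjusted p = 0.0103). MSRA5 (AT2G18030), a methionine sulfoxide reductase gene, was 1.43-fold lower (adjusted p = 0.00698). The lower count of the list was 3 without amp1-13 replicate 1, amp1-13 replicate 2, wild-type replicate 1 or wild-type replicate 3. Of 14 glutathione transferase genes 1 was higher and 3 lower. GSTU18 (AT1G10360) rose 2.35-fold (adjusted p = 0.00318) and GSTU23 (AT1G78320) was 1.77-fold lower (adjusted p = 0.00993). In that list the lower count was 5 without wild-type replicate 2 and 1 without any other single array, and the higher count was 2 without wild-type replicate 3.

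UDP-glycosyltransferases attach sugars to hormones, phenolics and foreign compounds. Of 51 such genes 10 were higher and 4 lower, and between 7 and 11 were higher when 1 array was left out. UGT73B1 (AT4G34138) had 6.96, 6.81 and 6.48 in amp1-13, against 5.25, 4.82 and 4.95 in wild type, a rise of 3.34-fold (adjusted p = 0.000384). UGT87A2 (AT2G30140) had 9.17, 9.6 and 9.81 in amp1-13, against 8.24, 8.42 and 7.9 in wild type, a rise of 2.53-fold (adjusted p = 0.00149). Neighbouring genes of the phenylpropanoid branch had opposite signs. UGT84A3 (AT4G15490), of the group that makes hydroxycinnamate esters, rose 2.55-fold (adjusted p = 0.00253), while UGT84A4 (AT4G15500) was 1.54-fold lower (adjusted p = 0.00305). UGT72B3 (AT1G01420) had 6.81, 6.57 and 7.04 in amp1-13, against 8.0, 7.99 and 8.04 in wild type, and was 2.30-fold lower (adjusted p = 0.000611). The lower count was 7 without wild-type replicate 1.

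Below the 10 largest rises and falls among named genes, the genes ranked 11 to 40 in each direction carried mostly locus numbers. Their log2 differences ran between 2.34 for AT4G34150 and 1.80 for AT2G41640 and AT5G14120 among rises, and between -2.16 for AT3G29970 and -1.54 for AT1G64370 among falls. Of the 30 rises 8 have a symbol, among them EXO, RING1 and SBT4.12, and of the 30 falls 4 have one, among them PME61, COR15B and HIS1-3. The functions of the others are not described here.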

How the data were processed

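RNA from whole seedlings was hybridised to Affymetrix ATH1 arrays. The deposited values are log2 signals made by the authors with RMA, per the submitters' processing notes, and the software version is not given in the sources used here. Of 22810 probe sets 64 controls were left out. The deposited values were used with no further normalization or filter. The package limma 3.58.1 (R 4.3.3) fitted all 9 arrays with a mean for each group (6 residual and 3.45 prior degrees of freedom). Its two-sided p-values were adjusted by Benjamini and Hochberg's method across 22746 probe sets, and an adjusted p below 0.05 counted as a call. The number of arrays, 3 per group, limits the precision, and an exact permutation of 3 against 3 could not go below 0.1. The fit was also run on simulated data with independent normal errors and no outlying array, which does not test the calls in these arrays.

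Of the probe sets 13513 name 1 gene, 503 name several and 8730 are not named here; 13436 matched the reference gene table, and 283 carry a suffix for possible cross-hybridisation. A gene was represented by its brightest probe set. Members and the 65 gene lists, rebuilt from gene names, were chosen with earlier results of these data known. From each list up to 4 genes per direction with the largest change were named if called, without overlap between groups and not dim in both, otherwise the 2 of smallest p; genes of lists of up to 8 could be named, and genes ranked 11 to 40 in each direction were added. Alternatives tried were a mean-signal filter set at either the 25th or the 50th percentile, repeated quantile normalization, median centring, a trended robust prior, array weights, a replicate block, the 6 arrays alone, a 2-fold minimum, probe set means and leaving out each array.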

Additional observations from a re-analysis of the deposited data

How the results depend on the processing

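Counts of called probe sets moved with the weight given to single arrays. With array weights 4412 were higher and 4951 lower, and with a 2-fold minimum 665 and 318. Leaving out 1 array gave between 1295 and 3864 higher and between 1250 and 4078 lower. Filters, centring, repeated quantile normalization, the trended prior and the 6 arrays alone kept both counts within 1.5 times of the full fit. With the replicate number as a block 2183 were higher and 2686 lower; same-numbered arrays had correlations of deviations of -0.0187, 0.108 and 0.226, so the numbers are not taken to pair the samples. Centring moved the median of all probe sets by -0.007. Of 263 called genes covered by the naming rule 167 kept their call in every alternative in which they were tested and 96 lost it in 1 or more. The difference of EXPA18 was -0.21 without amp1-13 replicate 1, 0.04 without amp1-13 replicate 2, 0.15 without amp1-13 replicate 3, 0.05 without wild-type replicate 1 and 0.09 without wild-type replicate 3. That of SPCH was 0.04 with array weights, -0.11 without wild-type replicate 1, 0.00 without amp1-13 replicate 1 and 0.08 without wild-type replicate 2. None of these was called, and the cause was not tested. Probe sets near the 25th percentile limit what can be detected, and the files give no detection call.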

Other observations

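A pair of small gene families was picked because members were seen to be lower in amp1-13, so their counts are a description. Of 6 genes with an LSM symbol, which encode Sm-like proteins of mRNA decay and splicing complexes, 5 were lower and 0 higher, beside 12.3% lower over genes with a symbol. LSM3A (AT1G21190) had log2 signals of 6.86, 6.63 and 7.0 in amp1-13, against 8.68, 7.36 and 8.31 in wild type, and was 2.44-fold lower (limma adjusted p = 0.0106). Of 8 genes for subunits of the nuclear RNA polymerases II, IV and V 5 were lower and 0 higher. The 4 genes of these families that were not called were LSM1B, NRPB9A, NRPB9B and NRPD7. Of 10 genes on the list for ribosome biogenesis and RNA polymerase I 2 were lower and 0 higher, with 0 lower without any one array other than wild-type replicate 2 and 4 lower without that one. NRPB7 (AT5G59180) had 7.77, 7.84 and 7.94 in amp1-13, against 8.76, 8.24 and 8.84 in wild type, and was 1.70-fold lower (adjusted p = 0.00818). In each of these 10 lower genes wild-type replicate 2 was the lowest wild-type array and lay above the mutant arrays. Without that array all 6 LSM genes and 6 of the 8 polymerase genes were called lower. Lower calls over all 22746 probe sets also went from 2835 to 4078 without it. Counts of these 2 families without each of the other arrays were not made, so their stability is not shown.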
